A study of Mus musculus with 6 samples.

Results

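The intestinal stem cell genes described here are 10 genes named as markers of active or reserve stem cells of the intestinal crypt (Lgr5, Ascl2, Olfm4, Smoc2, Lrig1, Hopx, Bmi1, Sox9, Cd44 and Msi1). They were taken by gene symbol from a table of 19844 genes, and all 10 were found. The table holds bulk poly-A RNA sequencing of distal colon from 6 C57BL6 mice, 3 wild type (WT) and 3 ChREBP knockout, all given AOM/DSS and sampled on day 17. AOM is azoxymethane, a carcinogen, and DSS is dextran sulfate sodium, which injures the colon lining. Every group received both agents, so no untreated colon stands beside these values. ChREBP, the product of Mlxipl, is a transcription factor activated by glucose, and the series asks whether it acts on colorectal carcinogenesis through the Wnt/beta-catenin pathway. The labels give neither the deleted exons nor the cells in which the allele is lost.

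The colon lining is renewed from stem cells at the base of its crypts, which divide under Wnt and R-spondin signals from the surrounding stroma and give rise to absorptive and secretory cells. Active stem cells carry LGR5, a receptor for R-spondins, and depend on ASCL2, a transcription factor that Wnt signalling switches on. A second set of markers, among them Lrig1, Hopx and Bmi1, was described in cells that divide less often or that restore the crypt after injury. Several of these genes are also transcribed outside the crypt base, for example Cd44 in leukocytes and Smoc2 in fibroblasts.

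Expression is given as FPKM, fragments per kilobase of transcript scaled to sequencing depth, which can be compared between genes because it is per length. Depth was estimated at 17700000 to 18475000 reads per library. Mlxipl read 5.84, 7.49 and 7.27 FPKM in wild-type replicates 1 to 3 and 3.40, 5.66 and 5.04 FPKM in knockout replicates 1 to 3, so its transcript was still present. All 6 mice are labelled female, yet Eif2s3y, a Y-linked gene, lay between 23.28 and 30.75 FPKM in every library, and Xist lay between 0.02 and 0.04 FPKM. All 14 epithelium markers were expressed, with Epcam between 685 and 812 FPKM. Wild-type replicates 1 and 2 stood apart from the other libraries in clock output genes: Dbp read 57.41 and 43.06 FPKM there, 0.95 FPKM in wild-type replicate 3 and between 0.94 and 6.14 FPKM in knockout.

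The 10 genes spanned a wide range of levels. Lrig1, which restrains ErbB receptor signalling, was the most abundant in all 6 libraries, at 25.33 to 31.31 FPKM. Its mean lay above that of 79.5% of the 13247 genes that passed the filter of 1 FPKM in at least 3 libraries. Next came Hopx, an atypical homeodomain gene, at 18.66 to 21.61 FPKM, and the transcription factor gene Sox9 at 15.49 to 24.73 FPKM. The hyaluronan receptor gene Cd44 lay at 14.79 to 19.74 FPKM and Smoc2, which encodes a secreted calcium-binding matrix protein, at 13.54 to 19.11 FPKM. Neighbours in the order from Hopx to Smoc2 overlapped in their ranges and were not set apart by their spread. Bmi1, a Polycomb repressor gene, followed without overlap at 6.58 to 8.71 FPKM. In the GENCODE M21 annotation, which is of GRCm38 and not of the build the authors used, exons of Lrig1 share 144 bases with those of Slc25a26 and exons of Hopx share 412 bases with those of Hopxos, both on the opposite strand. Exons of Olfm4 share 153 bases with those of Gm6999 on the same strand. Whether the counting used strand is not given in the sources used here, and without it reads in the first 2 overlaps cannot be told apart. Slc25a26 lay between 1.68 and 3.54 FPKM.

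The 2 defining active stem cell genes were low in this whole-tissue RNA. Ascl2 lay between 3.14 and 5.95 FPKM and Lgr5 between 1.66 and 3.30 FPKM, and their ranges overlapped slightly. Lgr5 stood above only 12.7% of the genes tested. At the estimated depth its values rest on 141 to 283 reads per library, and those of Ascl2 on 93.1 to 172 reads, estimates that cover counting alone. Msi1, which encodes an RNA-binding protein of progenitor cells, lay between 0.29 and 0.63 FPKM, or at least 16.5 reads per library. Olfm4, a secreted glycoprotein gene that marks crypt base cells of the mouse small intestine, was listed at 0 in 4 libraries. It read 0.03 FPKM in wild-type replicate 2 and 0.10 FPKM in knockout replicate 3, about 1 and 3 reads, at or under the 3-read floor of 0.099 to 0.103 FPKM. Olfm4 and Msi1 did not reach 1 FPKM in any library, so 8 of the 10 genes entered the test across all genes.

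**Figure D1:**
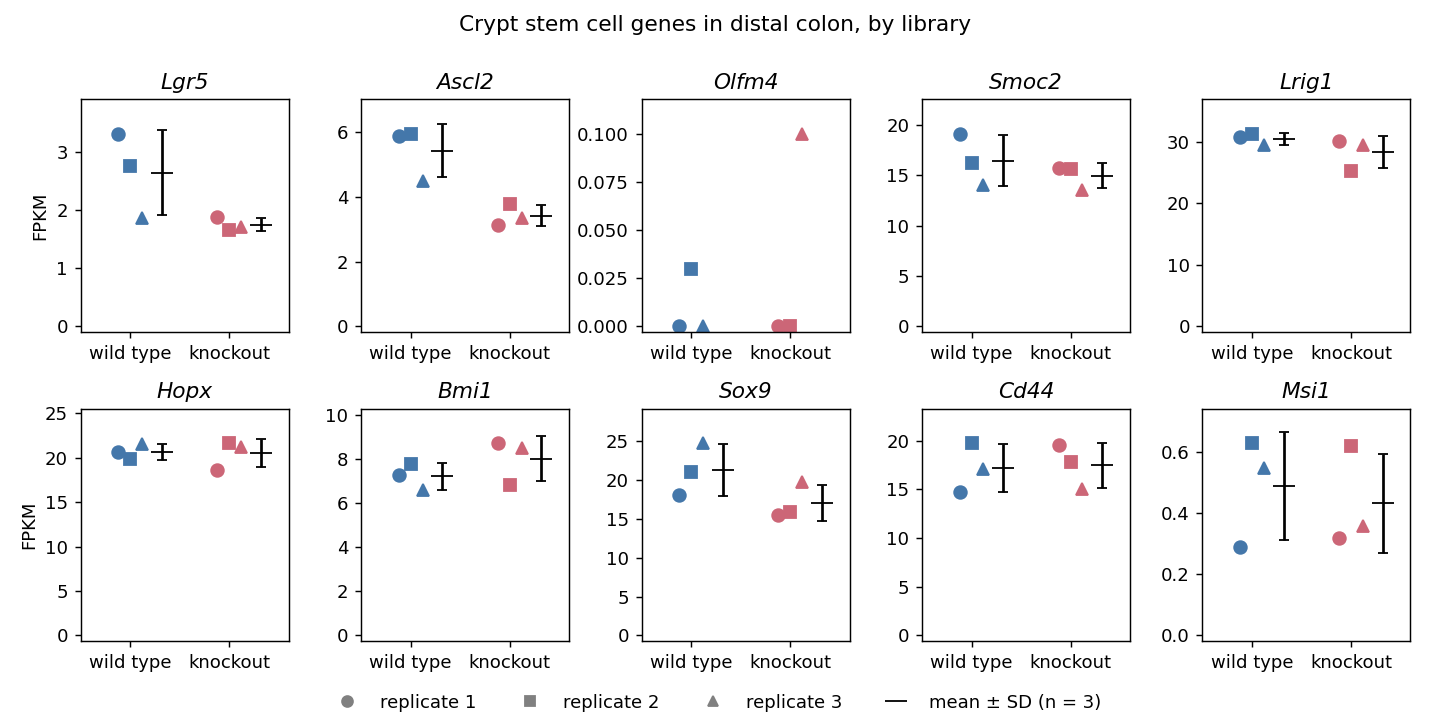
FPKM of the 10 genes (vertical axes, each from 0 and scaled to its gene) in 3 wild-type (blue) and 3 knockout (red) libraries, with marker shapes for replicate numbers and black bars for the mean ± SD of each group (not drawn for Olfm4, which is listed at 0 in 4 libraries). The 3 knockout values of Ascl2 lie below all 3 wild-type values, while in every other panel the groups overlap.

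Ascl2 had the largest log2 difference of the 8 tested genes. It read 5.88, 5.95 and 4.49 FPKM in wild-type replicates 1 to 3 and 3.14, 3.78 and 3.36 FPKM in knockout replicates 1 to 3. Every knockout library was below every wild-type library, with a gap of 0.71 FPKM between the groups. The means were 5.44 ± 0.824 and 3.43 ± 0.325 FPKM (SD, n = 3), so the knockout mean was 63.0% of wild type. Differences are given as knockout minus wild type in log2(FPKM + 1), where a low gene's change comes out smaller than in FPKM. That of Ascl2 was -0.54 (SE 0.13, 95% interval -0.85 to -0.22). The unadjusted limma p was 0.00422, but the gene did not pass the test over all genes (limma with Benjamini-Hochberg adjustment, adjusted p = 0.9995). The exact two-sided permutation test gave p = 0.1, the smallest that 3 against 3 allows, and 0.6 adjusted over the 10 genes.

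Lgr5 was lower on average in knockout, but its groups touched. It read 3.30, 2.76 and 1.86 FPKM in wild type and 1.87, 1.66 and 1.71 FPKM in knockout. Wild-type replicates 1 and 2 were high, whereas wild-type replicate 3 was level with knockout replicate 1. The coefficient of variation was 27.6% among wild types and 6.28% among knockouts, and the means were 2.64 ± 0.728 and 1.75 ± 0.110 FPKM (SD, n = 3). The log2 difference was -0.39 (SE 0.17, 95% interval -0.77 to -0.0036), with an unadjusted limma p of 0.0483 and an adjusted p of 0.9995. The exact permutation p was 0.2.

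Because these are whole-tissue libraries, fewer stem cells and less RNA per stem cell cannot be told apart. The proportion of the 2 genes did not separate the groups. The ratio of Ascl2 to Lgr5 in FPKM was 1.78, 2.16 and 2.41 in wild-type libraries and 1.68, 2.28 and 1.96 in knockouts, with overlapping groups (exact permutation p = 0.6, and 0.6 adjusted over 4 ratios of these genes). Wild-type replicates 1 and 2, the libraries high in the clock gene Dbp, were also the highest in both genes. With a clock score of Dbp, Per2 and Per3 as a term, an alternative chosen after seeing the data, the log2 difference was -0.17 for Lgr5 and -0.42 for Ascl2. Against wild-type replicate 3 alone, also an alternative chosen after seeing the data, it was -0.06 for Lgr5 and -0.31 for Ascl2. That library was the lowest wild type in both genes, so a smaller difference was set by values already seen. A link of the clock genes to these 2 genes was not tested.

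Smoc2, the third active marker with measurable expression, did not pass the test. It read 19.11, 16.26 and 14.08 FPKM in wild type and 15.73, 15.67 and 13.54 FPKM in knockout. Again wild-type replicate 1 was highest and wild-type replicate 3 lay among the knockouts. The log2 difference was -0.12 (SE 0.13, 95% interval -0.42 to 0.18). Summed FPKM of 11 fibroblast markers lay between 808 and 998 in wild type and between 898 and 945 in knockout, and the part of fibroblasts in the Smoc2 values was not tested.

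None of the reserve markers Lrig1, Hopx and Bmi1 passed the test. Lrig1 read 30.85, 31.31 and 29.46 FPKM in wild type and 30.15, 25.33 and 29.56 FPKM in knockout, and the other 5 libraries lay above knockout replicate 2. Its log2 difference was -0.11 (SE 0.10, 95% interval -0.34 to 0.12). Hopx read 20.62, 19.80 and 21.52 FPKM in wild type and 18.66, 21.61 and 21.25 FPKM in knockout, with means of 20.7 ± 0.860 and 20.5 ± 1.61 FPKM (SD, n = 3). The interval of the Hopx difference, -0.24 to 0.21 on the log2 scale, was the narrowest of the 8 tested genes. Bmi1 had the highest positive difference of the set, 0.13 (SE 0.12, 95% interval -0.16 to 0.42), from 7.29, 7.76 and 6.58 FPKM in wild type and 8.71, 6.84 and 8.51 FPKM in knockout. Its groups overlapped through knockout replicate 2.

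Sox9, a Wnt-responsive transcription factor gene of crypt base progenitors, followed an order of its own. It read 18.08, 20.99 and 24.73 FPKM in wild type and 15.49, 15.89 and 19.76 FPKM in knockout. The wild-type library lowest in Lgr5, replicate 3, was the highest in Sox9. The ratio of Sox9 to Lgr5 was accordingly 5.48, 7.61 and 13.3 in wild-type replicates 1 to 3, against 8.28, 9.57 and 11.6 in knockout (exact permutation p = 0.6). The log2 difference of Sox9 was -0.30 (SE 0.14, 95% interval -0.63 to 0.03, limma unadjusted p = 0.0687). Unlike that of Lgr5, it was farther from 0 with the clock score as a term (-0.42) and against wild-type replicate 3 alone (-0.52). Both alternatives were chosen after seeing the data, and the second was set by wild-type replicate 3 being the highest in Sox9.

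Cd44, the remaining tested gene, read 14.79, 19.74 and 17.07 FPKM in wild type and 19.57, 17.81 and 15.02 FPKM in knockout. Its means of 17.2 ± 2.48 and 17.5 ± 2.29 FPKM (SD, n = 3) differed by less than either SD, and the sign of its log2 difference of 0.02 turned once the libraries were scaled to equal totals. Wild-type replicate 2 was the highest in Cd44 and also in the summed leukocyte markers, which lay between 436 and 586 FPKM in wild type and between 371 and 558 FPKM in knockout. Knockout replicate 1 was nearly as high in Cd44, with a leukocyte sum of 442 FPKM, below the 558 FPKM of knockout replicate 2. The part of leukocytes in the Cd44 values was not tested. Msi1, below the filter, read 0.29, 0.63 and 0.55 FPKM in wild type and 0.32, 0.62 and 0.36 FPKM in knockout (exact permutation p = 0.9).

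Over the set, 0 of the 8 tested genes were called by limma at an adjusted p under 0.05, against 0.0151% of all genes tested. At an unadjusted p under 0.05 there were 2, Ascl2 and Lgr5, against 3.40% of all genes (1.70% lower in knockout). The unadjusted p of Ascl2 was under 0.05 in 14 of 15 alternatives, and it was 0.159 once the other two wild types were dropped. That of Lgr5 was under 0.05 in 6 of 15, and it was 0.0609 without the filter, 0.0507 with a pseudocount of 0.1, 0.274 with the clock score and 0.777 against wild-type replicate 3 alone. Without wild-type replicate 1 or 2, or any 1 of the knockouts, it lay between 0.0664 and 0.180, and without wild-type replicate 3 it was 0.0052. For Sox9 it was under 0.05 in 5 of 16. These included the clock score, the replicate number as a block, and leaving out wild-type replicate 1 or knockout replicate 3. In the alternatives with all 6 libraries and genotype as the sole term, the unadjusted p of Sox9 lay between 0.0613 and 0.225. Groups that did not overlap were found for 1 of 8, Ascl2, against 8.67% of all genes (4.14% lower in knockout). The log2 difference was negative for 6 of the 8, against 47.3% of all genes, with a median of -0.12 against 0.01. The genes were chosen with earlier results of these data known, so none of these shares tests the set. For all 8 the 95% interval lay between -1 and 1, a 2-fold change of FPKM + 1.

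**Figure D2:**
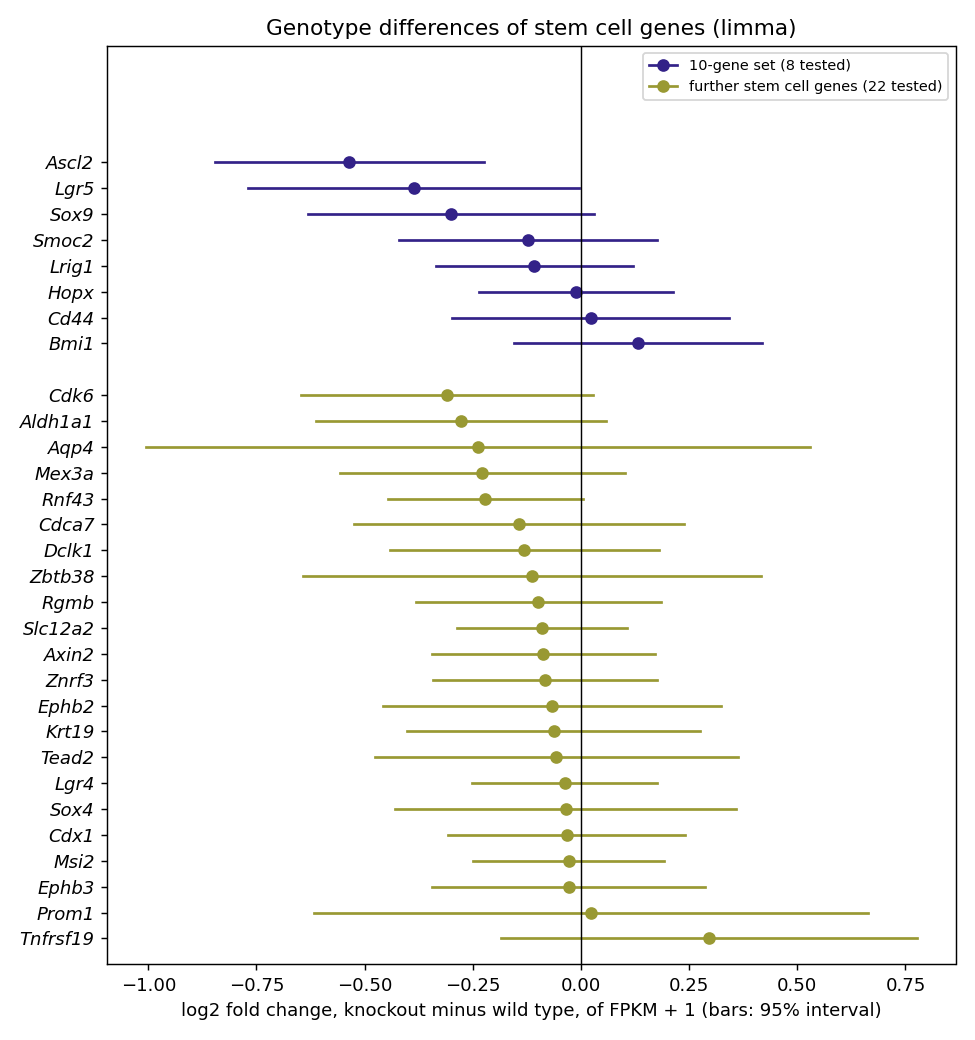
Log2 fold change of FPKM + 1, knockout minus wild type (horizontal axis), with 95% limma intervals (bars) for 8 tested genes of the set (dark blue) and 22 further stem cell genes (olive). The intervals of Ascl2 and Lgr5 lie below 0, and in the second list 20 of 22 points lie below 0 with every interval reaching it.

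Library by library, Lgr5, Ascl2, Smoc2 and Lrig1 shared a feature: wild-type replicates 1 and 2 were their highest values. Such an order was seen in 4 of the 8 tested genes, in 2 of 22 further stem cell genes and in 5.29% of all genes tested, a count made after seeing the values. In Lrig1 and Smoc2 that order rested on small margins over knockout replicate 1 (30.85 against 30.15 FPKM, and 16.26 against 15.73 FPKM). In contrast, Bmi1 was highest in knockout replicate 1, Hopx in knockout replicate 2 and Sox9 in wild-type replicate 3. No library was thus high or low across the whole set. Wild-type replicate 3 was the lowest wild type in 5 of the 8 genes and the highest in 2.

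**Figure D3:**
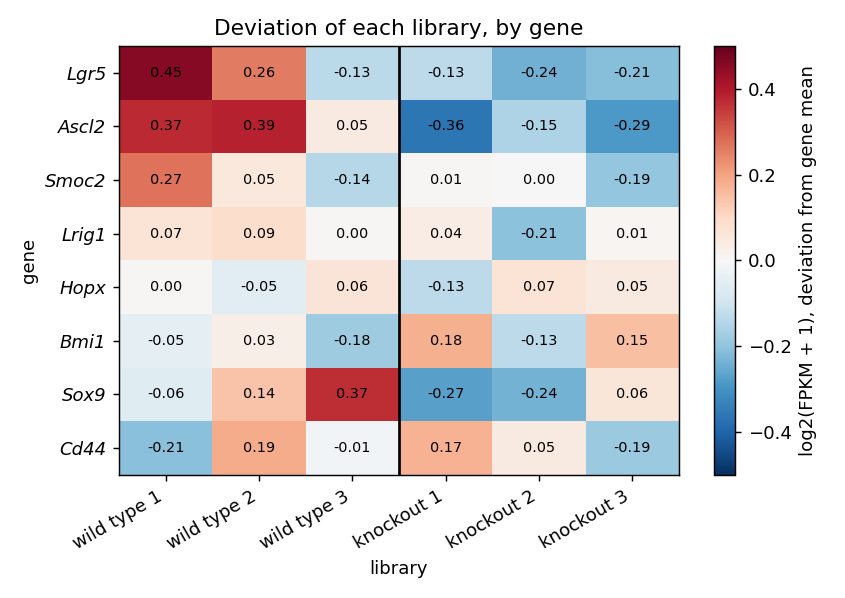
Deviation of each library from the gene's mean over 6 libraries, in log2(FPKM + 1) (colour and printed number), for the 8 tested genes (rows) in wild-type and knockout libraries (columns, divided by the black line). Lgr5 and Ascl2 are raised in wild-type replicates 1 and 2 (0.26 to 0.45), while Sox9 is highest in wild-type replicate 3 (0.37).

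Expression was also set against the epithelium. The mean log2(FPKM + 1) of 14 epithelium markers was subtracted from each gene in each library. Relative to it, Ascl2 was at -5.03, -5.06 and -5.40 in wild type and at -5.97, -5.66 and -5.63 in knockout, a difference of -0.59 with groups that did not overlap (exact permutation p = 0.1, the smallest possible, and 0.6 adjusted over 8 genes). Lgr5 was at -5.71, -5.94 and -6.34 in wild type and at -6.50, -6.51 and -6.31 in knockout, a difference of -0.44 with overlapping groups (exact permutation p = 0.2). The epithelium markers themselves leaned the other way, with 11 of 14 positive differences. Their summed FPKM was 7762 to 8144 in wild type and 7940 to 8625 in knockout. The subtracted mean was 7.81, 7.85 and 7.86 in wild-type replicates 1 to 3 and 8.02, 7.92 and 7.75 in knockout replicates 1 to 3. The groups overlapped in both measures, and the subtracted mean was lowest in knockout replicate 3.

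Further genes of the crypt stem cell programme, a list of 24 without the 10 above, mostly had small negative differences. Of 22 tested, 20 had negative and 2 positive log2 differences (median -0.08), 0 were called by limma and 0 had an unadjusted p under 0.05. Rnf43, a Wnt-induced ligase that removes Wnt receptors, read 13.99, 13.82 and 12.79 FPKM in wild type and 11.27, 10.85 and 12.31 FPKM in knockout (log2 difference -0.22, SE 0.10, limma unadjusted p = 0.0538). Its groups did not overlap, nor did those of the ion cotransporter gene Slc12a2, which makes 2 of 22 against 8.67% of all genes. The related ligase gene Znrf3 was at 3.09 ± 0.0458 and 2.87 ± 0.245 FPKM (SD, n = 3), and Axin2, a feedback gene of the pathway, at 11.6 ± 0.312 and 10.9 ± 1.36. Cdk6, a cell cycle kinase gene, had the lowest difference of the list, -0.31, and Aldh1a1, a retinaldehyde dehydrogenase gene, -0.28. The RNA-binding protein gene Mex3a, at 0.98, 1.08 and 1.28 FPKM in wild type and 1.05, 0.76 and 0.62 FPKM in knockout, had overlapping groups. Ephb2, a receptor that positions cells along the crypt, was at 10.2 ± 0.280 and 9.94 ± 2.68 FPKM. The 2 positive differences were 0.02 for Prom1, a membrane glycoprotein gene, and 0.30 for Tnfrsf19, a Wnt-responsive receptor gene that was highest in knockout replicate 3 at 2.89 FPKM against 1.25, 1.19 and 1.46 FPKM in wild type.

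Signals of the stem cell niche gave no common direction, with 11 positive and 14 negative differences among 25 tested genes, 0 called by limma and 2 at an unadjusted p under 0.05 (3.40% of all genes). Those 2 were Wnt2b, a stromal Wnt ligand gene, at 4.95, 4.20 and 5.52 FPKM in wild type and 2.95, 2.65 and 3.58 FPKM in knockout (log2 difference -0.54, limma unadjusted p = 0.00505), and the receptor gene Notch1 at 6.87 ± 0.631 and 5.32 ± 0.479. Both had an adjusted p of 0.9995. Groups did not overlap in 4 of the 25, Wnt2b, Notch1, Foxl1 and the Notch ligand gene Dll4, against 8.67% of all genes. Of the R-spondins, the ligands of LGR5, Rspo3 passed the filter and read 2.64, 3.38 and 2.23 FPKM in wild type and 2.85, 2.90 and 5.51 FPKM in knockout, whereas Rspo1 and Rspo2 did not pass it. The BMP antagonist gene Grem1, a product of stroma next to the crypt base, was at 28.8 ± 2.03 FPKM in wild type and ranged from 15.19 to 44.70 FPKM in knockout. Nrg1, an ErbB ligand gene, read 2.98, 2.28 and 1.86 FPKM in wild type and 5.35, 2.75 and 2.75 FPKM in knockout. The stromal transcription factor gene Foxl1 lay at 1.74 ± 0.101 and 1.35 ± 0.269 (SD, n = 3).

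Genes that mark regenerating epithelium after injury, a state described as poor in Lgr5, were abundant in both groups. Ly6a lay between 232 and 517 FPKM, and Clu between 37.02 and 135.24 FPKM, with its highest and lowest values both in wild type. Of 13 tested genes 6 had positive and 7 negative differences (median -0.0048), 0 were called by limma and 1, the YAP target Ctgf, had an unadjusted p under 0.05 (log2 difference -0.58), against 3.40% of all genes. Differentiated colonocyte genes had 7 positive and 9 negative differences among 16 tested (median -0.11, near that of the stem cell set). Krt20, a keratin gene of the surface epithelium, was at 397 ± 31.1 and 351 ± 128 FPKM.

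Proliferation genes mostly had positive differences, none of which passed the test. Of 18 tested, 17 had positive and 1 a negative log2 difference (median 0.20), where 47.3% of all genes were negative, with 0 called by limma and 2, Ccnb2 and Ccnb1, at an unadjusted p under 0.05 (3.40% of all genes). Mki67 read 33.97, 28.87 and 27.84 FPKM in wild type and 43.24, 29.09 and 31.63 FPKM in knockout, with overlapping groups. The summed FPKM of the list overlapped too, at 360, 306 and 259 in wild-type replicates 1 to 3 and 436, 335 and 310 in knockout replicates 1 to 3. Markers of cells that also express some of the 10 genes leaned in different directions. Tuft and enteroendocrine markers had 6 negative differences among 7 tested, against 47.3% of all genes. Dclk1, 1 of those 6, also stands among the further stem cell genes. All 9 tested smooth muscle markers were positive, with Myh11 at 499 FPKM in knockout replicate 3 against 222 to 317 FPKM in the other libraries. Their sum was 2699 to 3685 FPKM in wild type and 3094, 2890 and 4423 FPKM in knockout replicates 1 to 3. Of the tested neutrophil markers S100a8 read 6.04 FPKM in knockout replicate 1 against 0.77 to 1.10 FPKM elsewhere. S100a9 was also highest there, at 6.55 FPKM, whereas Csf3r, Cxcr2 and Ly6g were highest in other libraries. Ly6g lay between 165 and 233 FPKM in every library, far above the other markers of this list, and the cells behind it were not tested. Below the filter, Mmp9, Retnlg, Ltf and Mmp8 were highest in knockout replicate 1 and Camp in wild-type replicate 3. The part of these cell types in the stem cell gene values was not tested.

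**Figure D4:**
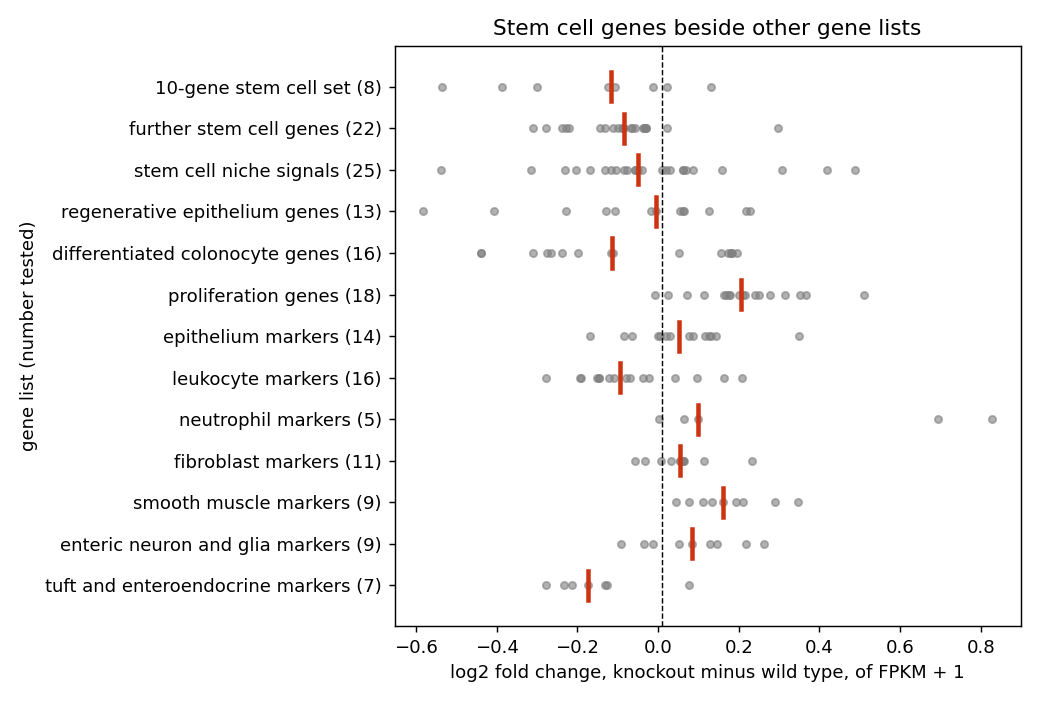
Log2 fold change of FPKM + 1, knockout minus wild type (horizontal axis), of each tested gene (grey points) in 13 gene lists (rows), with the list median as a red bar and the median of all 13247 tested genes as a dashed line (0.01). The stem cell set (median -0.12) and the proliferation genes (median 0.20) lie on opposite sides of the dashed line. Also below it are the medians of the differentiated colonocyte (-0.11), tuft and enteroendocrine (-0.17), leukocyte (-0.09), further stem cell, niche and regenerative lists. Those of the epithelium, neutrophil, fibroblast, smooth muscle, and enteric neuron and glia lists lie above it.

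Promoter sequence was available here for 6 of the 10 genes, with 7 start sites. The 250 bases before each start were searched on both strands for CACGTG, the E-box letters that ChREBP and its partner MLX bind in tandem, and for ATCAAAG, a core of the TCF/LEF sites through which beta-catenin acts. CACGTG occurred in 2 of the 7 windows, at 1 start of Hopx and in Bmi1, against 6.02% of all 32851 promoters. These letters hold a CG pair, and the 2 windows had 18 (Hopx) and 21 (Bmi1) such pairs. The median over all promoters was 6, so that share is not a like comparison. Windows without a match had 4 (Olfm4) to 26 (Lrig1). ATCAAAG occurred in none of the 7, against 3.21% of all promoters, which says only that these letters are not in the windows. The 2 windows with CACGTG are shown because of the link of that site to ChREBP, and that of Ascl2 because it is the gene with the smallest p. They run 5′ to 3′ on the gene's strand, from RefSeq on GRCm38.p6, with CACGTG in capitals.
Bmi1 (plus strand): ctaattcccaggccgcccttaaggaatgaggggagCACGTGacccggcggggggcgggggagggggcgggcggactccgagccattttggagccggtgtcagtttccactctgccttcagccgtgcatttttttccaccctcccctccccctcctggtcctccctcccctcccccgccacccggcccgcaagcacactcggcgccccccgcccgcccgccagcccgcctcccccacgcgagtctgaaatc
Hopx (minus strand): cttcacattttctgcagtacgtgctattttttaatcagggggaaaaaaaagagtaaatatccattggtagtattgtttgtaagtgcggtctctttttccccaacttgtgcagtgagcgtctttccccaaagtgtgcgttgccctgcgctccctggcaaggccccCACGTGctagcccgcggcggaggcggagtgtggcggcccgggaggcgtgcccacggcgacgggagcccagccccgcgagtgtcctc
Ascl2 (minus strand): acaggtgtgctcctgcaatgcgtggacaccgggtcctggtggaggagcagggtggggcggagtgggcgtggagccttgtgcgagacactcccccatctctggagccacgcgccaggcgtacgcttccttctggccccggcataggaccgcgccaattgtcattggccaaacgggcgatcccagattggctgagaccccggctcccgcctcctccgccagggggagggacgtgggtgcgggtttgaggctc
In Bmi1 the match lies 215 to 210 bases before the start, and in Hopx 86 to 81 bases before it. The 2 genes whose windows held CACGTG had overlapping groups and log2 differences of 0.13 (Bmi1) and -0.01 (Hopx). A match describes letters alone.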

How the data were processed

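Total RNA was extracted with Trizol and poly-A RNA was sequenced in 6 libraries, per the labels' protocols, without a stated strand-marking step, so antisense reads may count toward a gene. FPKM was the unit the authors deposited, in 1 table with a column for each library. Per the submitters' processing notes, HISAT2, RSEM and mm39 were used, with filters not given in the sources used here. Groups came from the genotype label. Genes reaching 1 FPKM in 3 or more libraries (13247 of 19844) were tested on log2(FPKM + 1) with limma 3.58.1 in R 4.3.3. The fit used a mean-variance trend, genotype as the sole term, two-sided tests, Benjamini-Hochberg adjustment and a threshold of 0.05. The pipeline was tested on simulated data with shifts larger than those reported here, in genes more abundant than Ascl2 and Lgr5. That simulation does not cover differences of the size reported here. Replicates are labelled as separate samples, and p-values measure the spread between them. Depth was estimated from the FPKM steps of 377 non-coding genes of up to 150 bases, which put 67.7% to 85.6% of values within 0.05 of a whole read. Transcript lengths for the estimated reads came from GENCODE M21. Of 203 list entries 199 matched a gene. The genes and lists were chosen with earlier results of these data known. The rule for named genes takes the 10 genes, up to 4 of each further list by smallest p and a fixed set, and not all were given values. Alternatives, read also by unadjusted p, changed the pseudocount, filter, scaling, variance model and libraries. Sequences came from RefSeq (GRCm38.p6), a build other than mm39, so no coordinates are given. Python 3.11.15 and scipy 1.17.1 were used for the permutation tests.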

Additional observations from a re-analysis of the deposited data

How the results depend on the processing

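No stem cell gene was called by limma under any alternative. Of the 8 genes of the main test, 5 to 7 had a negative difference where all were tested. With a mean of at least 5 FPKM, where Ascl2 and Lgr5 drop out, 4 did. The log2 difference of Ascl2 ranged from -0.65 to -0.31 over 15 alternatives (adjusted p 0.516 to 0.9999), that of Lgr5 from -0.55 to -0.06 (adjusted p 0.796 to 0.9999) and that of Sox9 from -0.52 to -0.18 over 16 (adjusted p 0.643 to 0.9999). Ascl2 and Lgr5 have no value with a mean of at least 5 FPKM. Signs turned for Hopx (0.0158 with array weights, -0.0489 to 0.0520 leaving out each library), for Cd44 (-0.0026 rescaled to the same total, -0.0302 with array weights, -0.0045 with the clock score, -0.0757 to 0.1210 leaving out each library) and for Smoc2 against wild-type replicate 3 alone (0.0806), a library then assumed to vary like the knockouts. Over all genes limma called 2, but 0 with a mean of at least 5 FPKM (316 at an unadjusted p under 0.05), 0 with the clock score (987), and 1 without wild-type replicate 1 or 0 without any other library (323 to 807). With the replicate number as a block 0 were called (504 at an unadjusted p under 0.05). Same-numbered libraries deviated with correlations of 0.27, -0.10 and 0.06, so the numbers were not taken as pairs. Relative to the epithelium markers 1 gene, Ascl2, had groups apart, but 2 with a pseudocount of 0.1 and 2 with Epcam alone as the reference, both adding Lgr5. Leaving out each library gave 1 to 4, with 3 without wild-type replicate 3 and 4 without knockout replicate 3. Groups come apart more readily with a library left out, and the share over all genes was not computed on this measure. The cause of the higher counts was not tested. Olfm4 rests on at most 3 estimated reads per library, so no difference was detectable there. Without the filter the log2 difference of Msi1 was -0.05 (95% interval -0.34 to 0.23).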
